A study of Mus musculus with 48 samples.

Results

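CD antigens are cell surface molecules that received a cluster of differentiation number from the antibodies that recognise them, and blood cells are sorted on them. The genes described here are those whose symbol is Cd followed by a digit and that had a count in at least 1 cell of the table. Of 24062 rows, 96 carried such a symbol. Left out by name were 5 (Cd34, Cd5l, and Cd2ap, Cd2bp2 and Cd3eap, which encode partner proteins), and 27 of the other 91 had no count in any cell, which left 64 genes. At the edge of this rule, Cd83, Cd209b and Cd276 had 1 read each in the whole table. The only values that chose the genes were these counts of at least 1, so their presence is a description and supports nothing.

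The 48 cells, each sequenced alone, came from mouse fetal liver and form 1 group, labelled BFU-E, the early erythroid progenitor that forms bursts of red cells in culture. They were taken at embryonic day 14.5. Per the labels, the sort removed cells with the lineage antigens CD3, B220, Ter119, Gr-1 and Mac-1 and cells with CD34, CD41, Sca-1 or CD16/CD32, selected c-Kit and kept the cells lowest in CD71. Strain, genotype, animal and batch are not named in the labels, no treatment is named for these cells, and the columns of the table match no sample title. They therefore count as 1 sample, no test between conditions was possible, and no p-value is given. Total counts ran from 246007 to 3211186 per cell.

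The group is defined by its name, not by a pathway, and its members do different work at the membrane. Tetraspanins such as CD81, CD53 and CD63 organise other membrane proteins into domains. CD55 and CD59 protect a cell from complement, CD48 and CD84 belong to the SLAM family of leukocyte receptors, CD3 and CD79 chains signal for the antigen receptors of T and B cells, and CD68 is a lysosomal protein of macrophages. Lineage choice in fetal liver is marked by genes such as Gata1, the erythroid transcription factor, Mpo, the myeloperoxidase of neutrophil precursors, and C1qb, a complement chain made by macrophages. Each antigen was therefore described by its detection and by which of these 3 anchor genes it accompanied.

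Of the 64 genes, 36 were read in at least 10 cells (56.2%), against 68.8% of the 14116 genes with a count, and 24 were read in at least 24 cells (37.5%), against 47.9%. The share of antigens read widely was thus below that of all genes. At a level of 10 CPM (counts scaled to a common library total, using TMM library sizes), 22 antigens (34.4%) were present in at least 10 cells. The share of all genes at this level was not computed, so this count is a description. At the other end, 11 were read in 1 cell and 17 in 2 to 9 cells. For a gene at 0 in 48 cells, the limit set by 3 counts is 6.25% of cells with a read. This limit and the interval below treat the 48 cells as independent draws, although they count as 1 sample. They cover the sampling of cells alone and no spread between animals, which the labels do not name. For the levels, no molecular identifiers mark which reads are copies of 1 molecule.

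**Figure D1:**
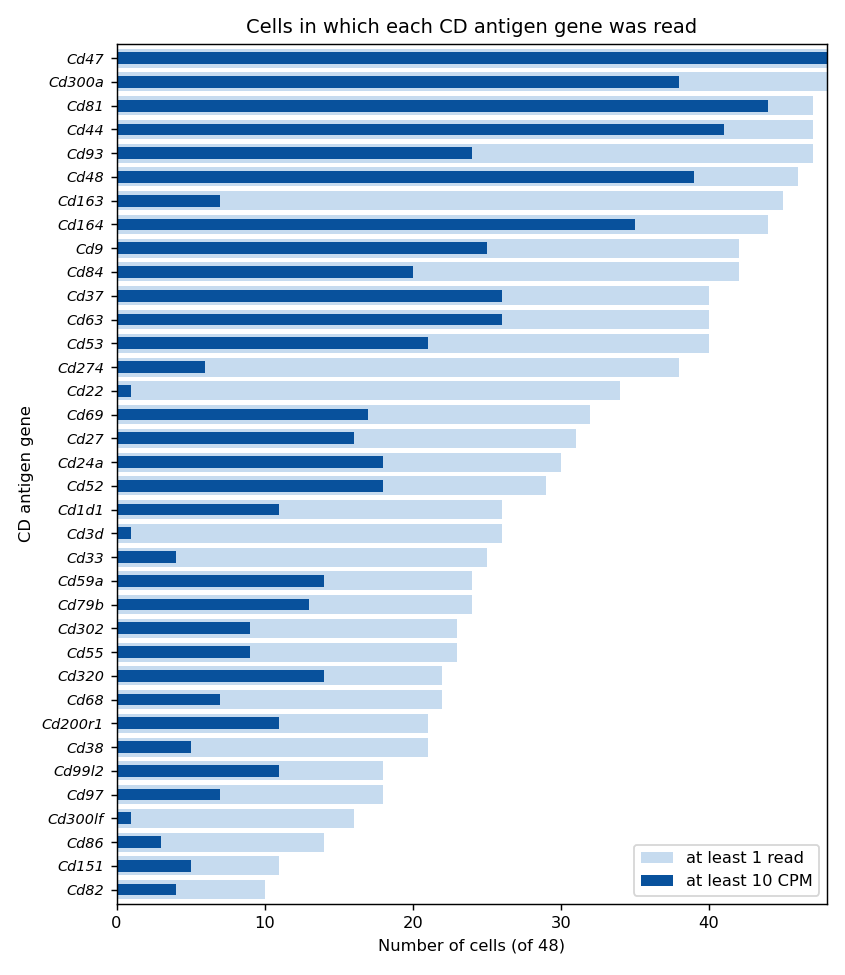
Number of cells, of 48, in which each of the 36 antigen genes read in at least 10 cells had at least 1 read (light bars) or at least 10 CPM (dark bars). Cd47 fills both bars at 48 cells, while Cd163 has 45 cells with a read and 7 at 10 CPM, and Cd22 has 34 and 1.

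A few antigens were read in nearly every cell, at levels that varied widely. Cd47, which encodes the signal that restrains phagocytosis (GRCm38 chromosome 16, 49800533 to 49915010, plus strand), had reads in each of the 48 cells (95% Clopper-Pearson interval 92.6 to 100%). It ran from 12.8 to 1376 CPM with a median of 292 CPM, and no cell was below 10 CPM. Cd81, a tetraspanin (chromosome 7, 143052739 to 143067934, plus strand), was read in 47 cells and reached 10 CPM in 44, with a median of 262 CPM. Cd44, the hyaluronan receptor, was read in 47 cells and reached 10 CPM in 41, with a median of 220 CPM. Cd48, a GPI-anchored member of the SLAM family, was read in 46 cells and reached 10 CPM in 39, with a median of 238 CPM. The sialomucin gene Cd164 was read in 44 cells and reached 10 CPM in 35, with a median of 62.4 CPM. Less widely read were Cd84, another SLAM family receptor, in 42 cells at a median of 5.44 CPM, and Cd24a, the heat-stable antigen that is also GPI-anchored, in 30 cells at a median of 0.702 CPM and up to 1372 CPM, with 18 cells at 10 CPM.

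Divided by the length of each gene's merged exons, the mean levels were highest for Cd48 (269 CPM per kb), Cd53 (187), Cd81 (132), Cd68 (95.4), Cd9 (57.9), Cd44 (56.8) and Cd47 (56.4). The SD between cells was larger than the mean on the CPM scale for each of these except Cd47 (344 against a mean of 354 CPM). The order of the means is thus a description, and differences between genes were not tested. By the median it can differ, with 200 CPM per kb for Cd48 and 1.82 for Cd53. The mean of Cd68 also rests on 1 cell, which held 69.8% of its summed CPM.

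Other antigens were read in most cells at a low level, so that a read alone says little. Cd163, the scavenger receptor for haemoglobin bound to haptoglobin, was read in 45 cells with 392 reads in all and a median of 3.18 CPM, and reached 10 CPM in 7 cells. In the 2 cells with the most C1qb it had 4.40 and 15.2 CPM, inside the range of the other 46 (0 to 60.8 CPM). Cd22, a sialic acid-binding receptor of B cells, had reads in 34 cells, but a single one passed 10 CPM, at 335 CPM, and it was 1 of these 2. Cd274, which encodes PD-L1, was read in 38 cells and reached 10 CPM in 6, and Cd33, another sialic acid-binding receptor, was read in 25 and reached 10 CPM in 4. Cd300a, an inhibitory receptor, was the other gene read in all 48 cells, from 2.32 to 1752 CPM, with a median of 20.2 CPM and 38 cells at 10 CPM or more.

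CD3 was a target of the depletion, and the levels of its chains were low. Cd3d was read in 26 cells with 127 reads in all, at most 11.3 CPM, Cd3e in 1 cell with 2 reads, and Cd3g in 0. Among the 26 cells with a read of Cd3d, Cd4 was at 0 and Cd8a had a read in 2, at up to 15.5 CPM. Lck, a kinase of T cell receptor signalling, had a read in 9 of them, at up to 29.8 CPM. Of the 14 genes of the T and NK cell list, all in the table, 9 had a count, but Cd3d was the 1 read in at least 10 cells. Reads report transcript, whereas the sort was made on protein.

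To set antigens against the anchors, the 2 cells with over 1000 CPM of C1qb were taken apart, since they stood apart in macrophage markers. Over 8 such markers they summed to 37497 and 23434 CPM, and over 5 erythroid markers to 26.4 and 4.15 CPM, where the other 46 cells reached at most 1046 CPM of the macrophage markers. C1qb, which chose the 2 cells, is 1 of the 8 markers, at 9740 and 8038 CPM in them. The macrophage sums thus follow in part from that choice. In the other 46 cells, Gata1 and Mpo ran against each other (Spearman rho -0.606), so an antigen that rises with one tends to fall with the other. These cells comprised 18 with at least 10 CPM of Gata1 and under 100 CPM of Mpo, 10 with at least 10 CPM of Gata1 and at least 100 CPM of Mpo, 17 with under 10 CPM of Gata1 and at least 100 CPM of Mpo, and 1 with neither. They are called Gata1 cells, double cells and Mpo cells below. The limits that make these sets were chosen with the data known, the cells are not replicates, and no doublet caller was run. Summed over Mpo, Elane, Prtn3 and Ctsg, the neutrophil precursor markers had medians of 37.1, 402 and 8159 CPM in the 3 sets, and summed over the 5 erythroid markers the medians were 2205, 1535 and 6.61 CPM. The sets were cut on Mpo and Gata1, which are in these sums, so the order follows in part from that choice. An Mpo cell nevertheless held 2444.5 CPM of the erythroid markers, and the cell with neither held 1729 CPM.

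**Figure D2:**
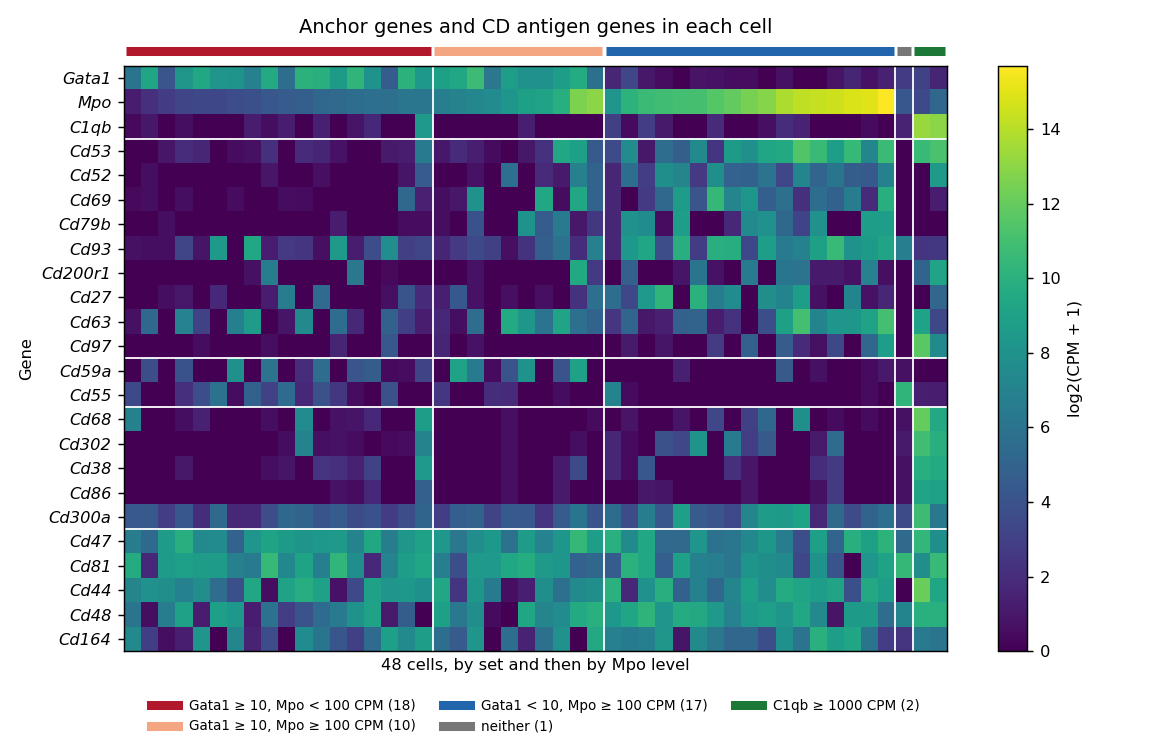
Level of the 3 anchors and of 21 antigen genes, as log2(CPM + 1), in each of the 48 cells, ordered by set (colour bar above) and then by Mpo. Cd53, Cd52, Cd69, Cd79b and Cd93 are bright mainly in the 17 Mpo cells (Cd53 also in the 2 cells at the right and Cd52 in 1 of them), Cd68, Cd302, Cd38 and Cd86 in the 2 cells with over 1000 CPM of C1qb, and Cd47, Cd81 and Cd44 across the sets.

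Correlations were computed for 8601 genes read in at least 10 cells with a mean of at least 5 CPM, among them 35 of the 64 antigens. They are given over the 46 cells as a description with no p, and the points share 1 protocol and the same library scaling, with chips and runs not named in the labels. With Mpo, 9 antigens had a rho of 0.4 or more, a limit that 3.62% of all 8600 other genes passed, and 1 had a rho of -0.4 or less, against 1.53%. With Gata1, 1 antigen had a rho of 0.4 or more, against 1.74% of all genes, and 5 had a rho of -0.4 or less, against 2.17%. The counts with Gata1 above its limit and Mpo below its limit, 1 each, are near the background. The median rho with Mpo was 0.115 over the 35 antigens and 0.00198 over all genes, and that with Gata1 was -0.0565 and 0.0151. Of the 35, 3 (Cd22, Cd86 and Cd300lf) had a mean under 5 CPM in the 46 cells. They entered through the 2 cells with over 1000 CPM of C1qb, so their rho says little. With no filter, the counts over all 64 antigens were the same 9, 1, 1 and 5, against 2.51%, 1.03%, 1.21% and 1.59% of all genes with a read.

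**Figure D3:**
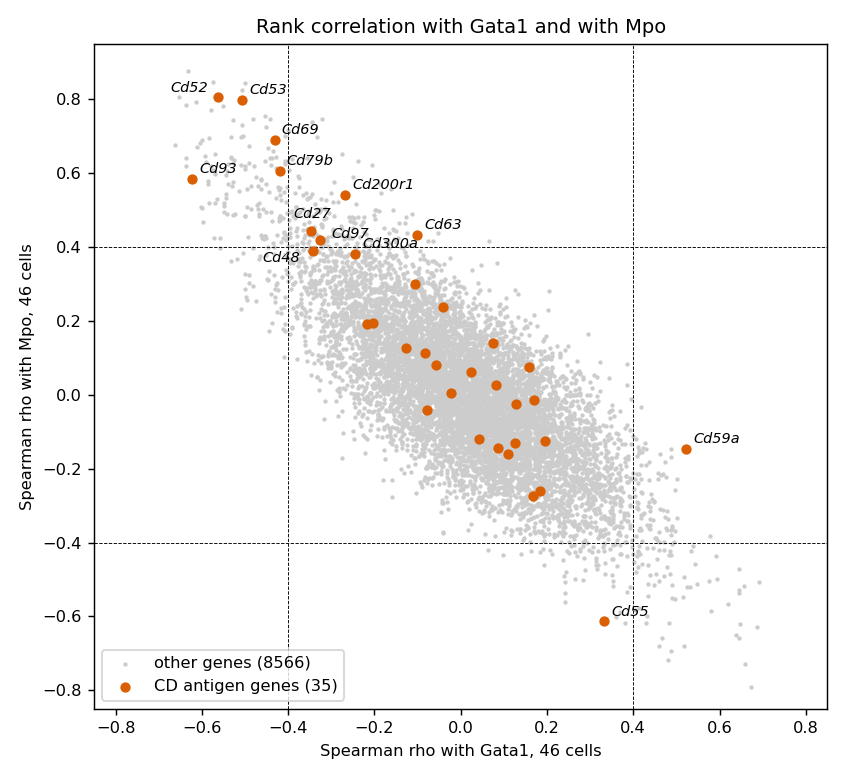
Spearman rho with Gata1 (horizontal axis) and with Mpo (vertical axis) over 46 cells for 35 antigen genes (orange, named where past or near a limit) and 8566 other genes (grey), with dashed lines at 0.4 and -0.4. Cd52 and Cd53 lie at the top left at 0.806 and 0.799 with Mpo, Cd59a lies at the right at 0.522 with Gata1, and Cd55 at the bottom at -0.613 with Mpo.

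Cd52 and Cd53 followed Mpo most closely of the 35 antigens. Cd52 encodes a very small GPI-anchored glycoprotein of leukocytes (chromosome 4, 134082448 to 134095082, minus strand). It ran from 0 to 22 CPM with a median of 0 in the 18 Gata1 cells, from 0 to 115 CPM with a median of 0.971 in the 10 double cells, and from 2.29 to 230 CPM with a median of 34.4 in the 17 Mpo cells. At 10 CPM it was present in 1, 3 and 13 cells of these sets, and the ranges overlapped. The highest Gata1 cell was the 1 with 338 CPM of C1qb, and the highest of all 48 cells, at 367 CPM, was 1 of the 2 with over 1000 CPM of C1qb, while the other was at 0. The rho of Cd52 with Mpo was 0.806, the 6th highest of 8600 genes.

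Cd53, a tetraspanin of leukocytes (chromosome 3, 106759921 to 106790149, minus strand), had medians of 0.822, 2.03 and 235 CPM in the Gata1, double and Mpo cells. Its highest values were 92.7, 669 and 2822 CPM, and it reached 10 CPM in 1, 3 and 15 cells. The 92.7 CPM again came from the cell with 338 CPM of C1qb, and the 2 cells with over 1000 CPM of C1qb held 1522 and 2373 CPM. Over the 46 cells the rho with Mpo was 0.799, 7th of 8600. Inside the 17 Mpo cells alone Cd53 still rose with Mpo (rho 0.725), whereas Cd52 had a rho of 0.135 there. Inside the 28 cells with at least 10 CPM of Gata1 the values were 0.443 for Cd53 and 0.551 for Cd52, with each at 10 CPM in 4 of the 28. Gata1 and Mpo themselves had a rho of 0.111 in these 28, and the rho with Gata1, negative over the 46 cells, was above 0 there for Cd52 (0.288), Cd53 (0.250), Cd69 (0.213) and Cd79b (0.00683), but not for Cd93 (-0.234).

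Cd69, an early activation antigen of leukocytes, had a rho of 0.691 with Mpo and -0.431 with Gata1. It was at 10 CPM in 1 Gata1 cell, 4 double cells and 12 Mpo cells, with a highest value of 1417 CPM. Cd93, a C-type lectin-like receptor known from early fetal liver progenitors as AA4.1, had a rho of -0.623 with Gata1, the 7th lowest of 8600 genes, and 0.585 with Mpo. Its medians were 4.66, 5.98 and 371 CPM in the Gata1, double and Mpo cells, and it reached 10 CPM in 5, 4 and 14 of them. A Gata1 cell nevertheless held 654 CPM, so the ranges overlapped.

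Cd79b, which encodes the Ig-beta chain of the B cell receptor (chromosome 11, 106311341 to 106314762, minus strand), followed Mpo with a rho of 0.607. None of the 18 Gata1 cells passed 1.37 CPM, while 4 of 10 double cells and 9 of 17 Mpo cells reached 10 CPM, up to 441 CPM. In the 24 cells with a read of Cd79b, the B cell transcription factor genes Ebf1 and Pax5 were at 0, and its partner chain Cd79a had a read in 1 cell, at 1.84 CPM. With Gata1 the rho of Cd79b was -0.420, and without 1 of the cells it came to -0.382.

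The remaining followers of Mpo were looser. Cd27, a receptor of the TNF receptor family, had a rho of 0.445, with 3, 2 and 10 cells at 10 CPM in the Gata1, double and Mpo cells. Its rho was 0.357 with every cell thinned to 246007 counts, below the limit, and -0.283 inside the 17 Mpo cells. Cd200r1, an inhibitory receptor for CD200, had a rho of 0.542, but was at 10 CPM in 2, 1 and 6 cells, and with the same thinning its rho was 0.276. Cd63, a tetraspanin of lysosomes and granules, had a rho of 0.434 and reached 10 CPM in 7, 7 and 11 cells. Its rho was 0.689 inside the 17 Mpo cells and 0.287 inside the 28 cells with Gata1. Leaving out 1 cell took the rho of Cd63 to 0.396 at the lowest and that of Cd97 from 0.419 to 0.372.

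Cd97, an adhesion receptor for which CD55 is a known ligand, was at 10 CPM in 1, 0 and 4 cells of the Gata1, double and Mpo sets. The gene, Adgre5 in the annotation, shares 895 exon bases with Ddx39 on the opposite strand, and whether counting used the strand is not given in the sources used here, so its reads are uncertain. Cd52 shares 172 exon bases with Crybg2, Cd55 102 with an antisense gene, and Cd27 129 with a miRNA gene. Other antigens also overlap opposite-strand genes, such as Cd274 (511 exon bases), Cd22 (479), Cd9 (218), Cd151 (193) and Cd81 (104). The anchor Mpo shares 512 exon bases with the opposite-strand gene Gm11505, so the same doubt holds for it. Near-identical copies within the Cd59, Cd1d, Cd200r, Cd209 and Cd300 families may also have split reads.

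Cd59a was the 1 antigen past the limit with Gata1. It encodes a GPI-anchored inhibitor of the membrane attack complex (chromosome 2, 104095801 to 104115354, plus strand), and its rho of 0.522 was the 24th highest of 8600 genes. Medians were 1.80 CPM in Gata1 cells, 15.1 CPM in double cells and 0 in Mpo cells, with highest values of 238, 531 and 19.8 CPM. It reached 10 CPM in 7 Gata1, 6 double and 1 Mpo cell, with ranges that overlapped. Inside the 28 cells with Gata1 its rho with Gata1 was again 0.522, while that with Mpo was 0.286. Cd59b, its near copy, was read in 2 cells.

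Cd55, the decay-accelerating factor, was the 1 antigen at or below -0.4 with Mpo (rho -0.613), followed by Cd81 (-0.273) and Cd82 (-0.259). Its rho with Gata1 was 0.333 over the 46 cells and -0.174 inside the 28 cells with Gata1. Reads were found in 23 cells, and 9 held 10 CPM or more. Of these 9, 7 were Gata1 cells, 0 double cells and 1 an Mpo cell, and the last was the single cell with neither anchor, which held 1246 CPM, 78.5% of all Cd55. Medians were 4.17 CPM in Gata1 cells and 0 in double and Mpo cells, with ranges that overlapped, and on the log2(CPM + 10) scale Pearson's r was -0.389.

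To show the sequence beside the values, the 250 bases before the RefSeq start are printed for 1 gene of each pattern: Cd53 (with Mpo, chr3:106790150-106790399, minus strand), Cd59a (with Gata1, chr2:104095551-104095800, plus strand), Cd55 (against Mpo, chr1:130462745-130462994, minus strand) and Cd68 (with C1qb, chr11:69666171-69666420, minus strand), all from RefSeq on GRCm38.p6. Of the 64 antigens, 45 have an entry in that promoter table. Capitals mark the letters AGATAA (the GATA core), AGGAAG (an ETS core), TGTGGT (the RUNX core) and TTGCNNAA (a C/EBP-type core) on either strand.
Cd53: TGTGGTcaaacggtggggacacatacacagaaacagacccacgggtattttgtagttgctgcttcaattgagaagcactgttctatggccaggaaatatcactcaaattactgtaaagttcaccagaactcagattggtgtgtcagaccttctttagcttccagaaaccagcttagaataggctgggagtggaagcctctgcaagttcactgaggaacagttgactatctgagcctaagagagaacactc
Cd59a: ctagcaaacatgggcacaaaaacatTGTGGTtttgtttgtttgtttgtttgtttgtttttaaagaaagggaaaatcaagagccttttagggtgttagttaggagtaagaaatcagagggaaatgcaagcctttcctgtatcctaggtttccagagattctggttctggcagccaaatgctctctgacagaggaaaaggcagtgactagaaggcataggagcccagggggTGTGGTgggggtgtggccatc
Cd55: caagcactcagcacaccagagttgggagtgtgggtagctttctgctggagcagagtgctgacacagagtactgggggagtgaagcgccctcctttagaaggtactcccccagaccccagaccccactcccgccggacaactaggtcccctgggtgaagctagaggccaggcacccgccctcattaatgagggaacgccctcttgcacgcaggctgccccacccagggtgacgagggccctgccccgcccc
Cd68: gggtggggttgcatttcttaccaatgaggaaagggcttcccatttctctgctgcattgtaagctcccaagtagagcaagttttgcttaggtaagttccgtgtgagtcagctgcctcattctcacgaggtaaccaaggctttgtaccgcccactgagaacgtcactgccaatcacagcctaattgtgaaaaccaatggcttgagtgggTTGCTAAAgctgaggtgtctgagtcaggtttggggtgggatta
TGTGGT occurs 1 time in the Cd53 window and 2 times in that of Cd59a, and 14% of 32851 promoter windows of this length hold it. The window of Cd68 has 1 match to TTGCNNAA, which 9.56% of all windows hold. AGATAA, held by 9.99% of windows, and AGGAAG, held by 29.5%, are in none of these 4. A match is a description and no evidence of binding.

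The number of antigens in a cell differed between the sets. At 10 CPM or more a cell held a median of 13 of the 64 antigens, from 7 to 23. Gata1 cells held 7 to 16 with a median of 10, double cells 7 to 19 with a median of 13, Mpo cells 12 to 19 with a median of 15, and the 2 cells with over 1000 CPM of C1qb held 19 and 23. The ranges of the first 3 sets overlapped. Over the 46 cells the number rose with Mpo (rho 0.721) and fell with Gata1 (rho -0.422). The number of all genes at 10 CPM had a rho of 0.0684 with Mpo, and total counts had -0.0570. Leaving out the 9 antigens that follow Mpo, the medians were 9.5, 10 and 10 and the rho was 0.167. These 9 were chosen by their rho with Mpo, so a lower value without them follows in part from that choice.

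Counting any read instead, a cell had reads of 14 to 34 antigens, with a median of 26. Medians were 23.5, 25 and 28 in Gata1, double and Mpo cells. With every cell thinned to the lowest total of 246007 counts, they were 15.5, 16.5 and 21, and the rho with Mpo went from 0.459 to 0.585.

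**Figure D4:**
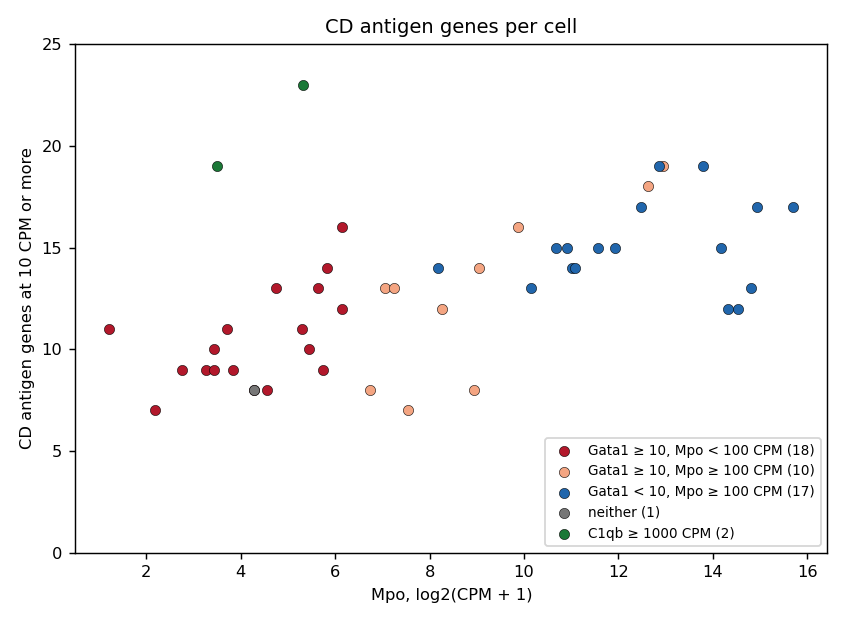
Number of the 64 antigen genes at 10 CPM or more in each cell (vertical axis) against Mpo as log2(CPM + 1), coloured by set. The 17 Mpo cells sit between 12 and 19 antigens, the 18 Gata1 cells between 7 and 16, and the 2 cells with over 1000 CPM of C1qb at 19 and 23.

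C1qb marks too few cells for a correlation. It was at 9740 and 8038 CPM in 2 cells, at 338 CPM in 1 other and at most 6.86 CPM in the remaining 45. Of 40 antigens with a mean of at least 5 CPM over the 48 cells, 7 were at 10 CPM or more in both cells and at least 10 times higher on average there than in the other 46, against 3.6% of 9234 genes. These were Cd68, Cd302, Cd38, Cd86, Cd97, Cd300a and Cd200r1. Of the 40, 6 had a mean under 5 CPM in the other 46 cells and entered through the C1qb cells (Cd14, Cd22, Cd36, Cd86, Cd300ld and Cd300lf), so they had to differ, and the count is a description. With no filter on the mean, 7 of all 64 antigens passed, against 2.46% of genes. The 2 cells had TMM factors of 0.419 and 0.579, which raise their CPM, and with plain total counts 5 antigens passed, without Cd300a and Cd200r1, against 1.95% of genes. Counting also the cell with 338 CPM of C1qb, 5 passed, without Cd97 and Cd200r1, against 1.43% of genes.

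In 4 of the 7, both cells lay above every other cell in TMM-scaled CPM. Cd68, a lysosomal glycoprotein of macrophages (chromosome 11, 69664213 to 69666153, minus strand), had 4015 and 723 CPM in them and at most 424 CPM elsewhere. Cd302, a C-type lectin, had 1892 and 962 CPM against at most 284 CPM. Cd38, an ectoenzyme that consumes NAD, had 905 and 789 CPM against at most 342 CPM. Cd86, a ligand of the co-stimulatory receptor CD28, had 565 and 514 CPM against at most 26.7 CPM.

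The other 3 overlapped the 46 cells. Cd97 had 3332 and 176 CPM against at most 444 CPM, Cd300a 1752 and 76.1 CPM against at most 540 CPM, and Cd200r1 32.3 and 567 CPM against at most 748 CPM. The fold for Cd200r1 was 10.1, at the edge of the limit. Cd97 and Cd200r1 thus passed the limits with both Mpo and C1qb, that with Mpo being over the 46 cells alone. Over all 48 cells the rho of Cd97 with Mpo was 0.296, and with thinning that of Cd200r1 was 0.276. Neither passed with C1qb when the cell with 338 CPM of C1qb was also counted.

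Several antigens were high in 1 of the 2 cells and low or at 0 in the other. Cd300ld (3625 CPM) and Cd300lf (2356 CPM), receptors of the Cd300 family, were high in 1 cell, while the other had 0 and 1.38 CPM. That other cell held Cd36, a scavenger receptor, at 1521 CPM, Cd14, the co-receptor for lipopolysaccharide, at 500 CPM, Cd84 at 1291 CPM and Cd22 at 335 CPM, against 2.93, 7.33, 0 and 0 CPM in the first. Cd84 was also at 10 CPM or more in 19 of the other 46 cells, up to 261 CPM. For Cd300ld, Cd300lf, Cd36 and Cd14, 1 cell accounts for at least 97.4% of the gene's summed CPM. With 2 cells, nothing can be said of how such cells vary.

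**Figure D5:**
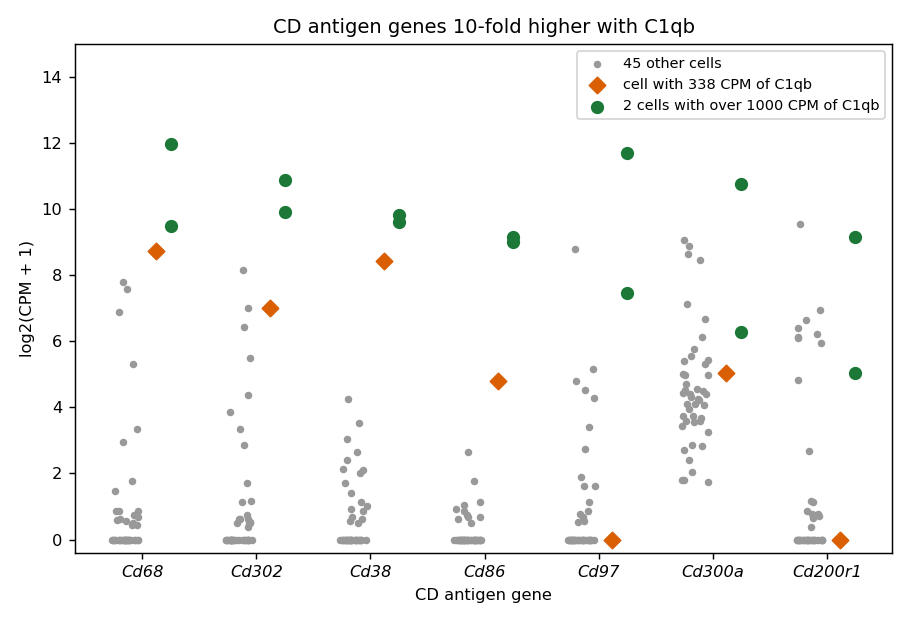
Level, as log2(CPM + 1), of the 7 antigen genes at least 10 times higher in the 2 cells with over 1000 CPM of C1qb (green), in the cell with 338 CPM of C1qb (orange diamond) and in the other 45 cells (grey). With this TMM scaling, the green points lie above all others for Cd68, Cd302, Cd38 and Cd86 and overlap the grey for Cd97, Cd300a and Cd200r1.

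By role, all 7 tetraspanins (Cd9, Cd37, Cd53, Cd63, Cd81, Cd82 and Cd151) were read in at least 10 cells and 5 in at least 24, and 2 followed Mpo. Over all genes with a count, 68.8% were read in at least 10 cells and 47.9% in at least 24. Of all genes tested, 3.62% had a rho of 0.4 or more with Mpo, and 3.6% passed the limit with C1qb. Cd9 reached 10 CPM in 25 cells and Cd37 in 26, with rho with Mpo of -0.119 and 0.238, while Cd151 and Cd82 reached it in 5 and 4. Of 14 activation and co-stimulation antigens 11 had a count and 5 were tested, of which Cd27 and Cd69 followed Mpo and Cd38 and Cd86 were higher with C1qb. Of 10 B cell and antigen presentation genes, 6 had a count and 3 were tested, with Cd79b the 1 past a limit. Of these 3, Cd22 entered through 1 C1qb cell, with a mean of 1.05 CPM in the other 46, so its rho says little. Cd1d1, which presents lipids, was at 10 CPM in 3 Gata1, 5 double and 3 Mpo cells. Of 27 myeloid and macrophage antigens in the table, 15 had a count and 6 were tested, and none of these passed a limit with Gata1 or Mpo. Of these 6, Cd86 and Cd300lf entered through the C1qb cells, with means of 0.897 and 0.453 CPM in the other 46, so their rho says little. Cd68, Cd300a and Cd86 of this list were higher with C1qb.

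Among the 35 antigens tested, 595 pairs were set against each other over the 46 cells. The median rho was 0.038, with 23 pairs at 0.4 or more and 7 at -0.4 or less. Of all 36984300 pairs among the genes tested, 0.58% were at 0.4 or more and 0.302% at -0.4 or less. Of the 23, 18 joined antigens that both follow Mpo, out of 36 such pairs, which follows in part from the choice of those antigens by Mpo in the same cells. Cd53 and Cd52 led (rho 0.747), with 15 cells at 10 CPM of both, of 19 and 17 with each. Cd52 and Cd69 followed (0.699, 12 cells with both). Cd55 ran against Cd69 (-0.684), Cd52 (-0.588), Cd53 (-0.522) and Cd79b (-0.455). This too follows in part from choosing Cd55 as against Mpo and the others as with Mpo in the same cells. At 10 CPM, reached by Cd55 in 9 cells, it was found with Cd53 in 1 cell and with the others in 0. No expected number of shared cells was computed. Cd44 and Cd81, both read in nearly every cell, also ran against each other (-0.419).

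Antigens with a CD number but another symbol were described alongside. Of 71 such genes, 63 had a count and 42 were tested. With Mpo, 11 had a rho of 0.4 or more, against 3.62% of all genes. Slamf1 was the 1 at -0.4 or less, against 1.53%, and the median was 0.133. That median was near the 0.115 of the Cd-named antigens. With Gata1, Kel and Rhag, both red cell membrane genes, were at 0.4 or more, against 1.74%. A further 9 genes were at -0.4 or less with Gata1, against 2.17%. Of 47, 12 were at least 10 times higher with C1qb, against 3.6% of genes. The mean that let in these 47 included the C1qb cells. A gene such as Mrc1, with a mean of 0.452 CPM in the other 46 cells, entered through them. It had to differ, so the count of 12 is a description.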

How the data were processed

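Counts and levels come from 48 single cells of 1 group. Per the submitters' processing notes, TopHat2 2.0.12, featureCounts 1.4.6 and mm10 were used. Strand settings are not given in the sources used here. The deposited table holds raw counts per gene, and the deposited log2 table matches, within 1e-06, counts scaled by DESeq size factors with 1 added before the log. Column names match no sample title, so the cells were 1 sample.

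CPM used TMM library sizes from edgeR 4.0.16 in R 4.3.3, with factors from 0.419 to 1.70. Spearman correlations and counts used Python 3.11.15, numpy 2.4.6, pandas 2.3.3 and scipy 1.17.1, and figures matplotlib 3.10.9. No filter on cells was applied, and no 2 cells were identical. The correlation step was tested on simulated data. Positions, exon lengths and overlaps are from GENCODE for GRCm38, where all 64 genes were found (Cd97 as Adgre5, Cd244 as Cd244a). Promoters are from RefSeq. The values of 1 gene are not reported here.

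The members, anchors, lists and limits were chosen with earlier results of these data known. Named genes are those read in at least 24 cells, past a limit with an anchor, or CD3 chains. Others, named beside their counts, were chosen after their values were seen. Alternatives were other library sizes (DESeq2 1.42.0 among them), the deposited log2 table, thinning, other levels, filters, pseudocounts and cells left out.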

Additional observations from a re-analysis of the deposited data

How the results depend on the processing

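The 8 counts given for the antigens were recomputed in 67 alternative values, of which 63 were within 1.5 times the reported one. At 50 CPM the median number of antigens per cell was 8. By Pearson's r on log2(CPM + 1), 8 antigens ran against Gata1 at -0.4 or less (2.64% of all genes did), and without the 5 cells of lowest total count 3 did (2.75%), when Cd69 (-0.371) and Cd79b (-0.353) missed the limit. By Pearson's r on log2(CPM + 10), 0 ran against Mpo at that limit (1.15%). Leaving out each of the 46 cells in turn gave 4 to 6 antigens against Gata1 and 7 to 11 with Mpo, and 1 each for the other counts. Of 16 single correlations past the limit, 9 stayed past it under all alternatives run, and 0 of 175 values changed sign. With all 48 cells, Cd63 (0.380) and Cd97 (0.296) missed the limit with Mpo, and Cd79b (-0.389) with Gata1. Leaving out the cell with 338 CPM of C1qb was chosen after seeing the data and changed none of the 4 correlation counts, the ones recomputed that way. The depth of the lowest cell, 246007 counts, limits what thinned values can show. No paired analysis was possible because there is 1 group.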

Other observations

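The cell with 338 CPM of C1qb was a Gata1 cell, with 336 CPM of Gata1. It was the highest of the 46 cells for Cd68 (424 CPM), Cd38 (342 CPM), Cd86 (26.7 CPM) and Cd82 (276 CPM), and the 3rd highest for Cd302 (127 CPM). Its 8 macrophage markers summed to 1046 CPM, with Vsig4 and Mpeg1 at 0, and its 5 erythroid markers to 1300.5 CPM. It had no read of Cd48.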
